A study of Mus musculus with 6 samples.

Results

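Collagen genes were taken as every gene of the adult brain table whose symbol reads Col, a number, a and a number, which gave 44 of 53801 genes. The rule used the symbol alone and no measured value, and 1 further known symbol, Col21a1, was not analysed here. The 44 genes encode 11 fibrillar chains, 6 basement membrane (type IV) chains, 6 microfibrillar (type VI) chains, 9 fibril-associated chains, 4 transmembrane chains, 3 short-chain network chains, 2 multiplexins and 3 others. RNA was sequenced from one brain hemisphere of each of 3 Bahd1-WT (Bahd1+/+) and 3 Bahd1-KO (Bahd1-/-) mice, and each hemisphere is 1 sample. All 6 mice were C57BL/6 adults of about 70 weeks with no other treatment named. The knockout was present in every tissue from conception and came from crosses of heterozygous parents, so the adult knockouts are the animals that lived through a mutation that kills part of the litter around birth, as the study describes. BAHD1 is a chromatin protein that represses genes, and the comparison asked which brain transcripts differed when it was missing.

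Collagens are matrix proteins built from chains that wind into a triple helix, and each chain carries long stretches of a Gly-X-Y repeat. Fibrillar collagens form the cables of connective tissue, which in the brain lie in the meninges and the adventitia of larger vessels. Type IV collagen forms the sheet-like network of the basement membrane around endothelial cells and pericytes and under the glial border of the brain. Type VI collagen makes beaded microfibrils beside basement membranes, and the transmembrane collagens sit in the plasma membrane of cells that include neurons.

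The repeat itself is shown first because it sets the classes apart. Below are 63 coding bases from the start of the longest unbroken run of GGN triplets of 6 chains, 5′ to 3′ on GRCm38, with exons joined and each glycine codon in capitals. The windows were read from the sense strand of the coding sequence of the annotated transcript. All of them except that of Col4a2, which lies in 1 exon, run across introns, which were removed.
Col1a1 (chr11:94939451-94939912, plus strand): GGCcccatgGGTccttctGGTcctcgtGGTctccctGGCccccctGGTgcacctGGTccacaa
Col1a2 (chr6:4512406-4515489, plus strand): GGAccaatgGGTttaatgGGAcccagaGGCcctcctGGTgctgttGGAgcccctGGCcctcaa
Col11a1 (chr3:114105402-114108298, plus strand): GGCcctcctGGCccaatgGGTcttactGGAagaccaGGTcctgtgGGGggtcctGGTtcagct
Col11a2 (chr17:34051274-34051497, plus strand): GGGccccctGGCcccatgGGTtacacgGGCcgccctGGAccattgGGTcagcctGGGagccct
Col4a1 (chr8:11247051-11267614, minus strand): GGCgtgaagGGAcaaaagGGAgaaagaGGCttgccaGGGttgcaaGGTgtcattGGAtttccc
Col4a2 (chr8:11429447-11429509, plus strand): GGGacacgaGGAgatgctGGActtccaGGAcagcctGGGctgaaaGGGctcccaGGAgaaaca

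In the fibrillar chains the longest run held 216 to 344 triplets, with 338 in Col1a1 and 339 in Col1a2. In the type IV chains it held only 39 to 66 triplets, and the helix was broken into 23 to 27 runs of at least 3 triplets. Glycine codons made up 21.3% to 28.3% of the fibrillar and 27.5% to 28.6% of the type IV coding sequences. Chains that pair in 1 molecule could differ in base composition. The coding sequence of Col11a1 had a GC content of 53.2% and that of Col11a2 64.2%, and the 63-base windows above had 63.5% and 73.0%.

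Sequencing depth was 42297150 to 93557948 counts per library. The targeted gene, Bahd1, was counted 1383, 844 and 1099 times in Bahd1-WT and 0, 14 and 1 times in Bahd1-KO, which matches the labels. Bahd1-KO replicate 2 stood apart from the other libraries, at 90.3 on the first principal component of log2 CPM against -56.5 to 33.0. This component held 88.9% of the variance. On it all Bahd1-WT mice (-56.5 to -24.9) lay below all Bahd1-KO mice (-2.49 to 90.3). Marker genes of the cells that make collagen were present in every library. The summed level of 13 meningeal and perivascular fibroblast markers was 132 to 147 CPM in Bahd1-WT and 143 to 155 CPM in Bahd1-KO, that of 10 endothelial markers was 308 to 332 CPM and 339 to 454 CPM, that of 8 pericyte markers was 258 to 307 CPM and 247 to 292 CPM, and that of 5 smooth muscle markers was 24.6 to 29.7 CPM and 32.7 to 49.5 CPM. The endothelial and smooth muscle sums did not overlap between genotypes, but a sum is weighted to its most abundant genes. At an unadjusted p under 0.05, which 19.9% of all genes reached as higher and 12.0% as lower, 4 fibroblast markers were higher and 1 lower, 2 endothelial (Slc2a1 and Cldn5), 4 pericyte and 3 smooth muscle markers were higher, and none of these 3 lists had a lower one. The median log2 fold change was 0.22 for the endothelial list (0.27 with the correction for GC content and length given further on, and then 3 higher and 0 lower), with 4 of its 10 markers below 0, and 0.61 for the pericyte list (0.01 with the correction), in which the abundant Rgs5 was at -0.46 (0.0052 with the correction). With the correction 9.89% of all genes were higher and 11.4% lower at the same threshold. The fibroblast list then had 0 higher and 1 lower, and the pericyte and smooth muscle lists had 1 higher and 0 lower each. The fibroblast median went from 0.15 to 0.01 and the smooth muscle median from 0.57 to 0.18. The part of these cells in the collagen levels was not tested. In a whole hemisphere, fewer cells of a type and less RNA per cell cannot be told apart, and the table does not tie any collagen to the meninges or vessels. Markers of other tissues were also counted. Choroid plexus epithelium summed to 279 to 378 CPM in Bahd1-WT and 461 to 1084 CPM in Bahd1-KO, cartilage and bone to 7.43 to 12.4 CPM and 12.2 to 17.2 CPM, skeletal muscle to 1.57 to 2.56 CPM and 3.03 to 12.5 CPM, and neurons to 5711 to 6940 CPM and 5315 to 6433 CPM. The choroid plexus and skeletal muscle sums did not overlap between genotypes either. Of the 6 choroid plexus markers only Ttr was higher (log2 fold change 1.29) and Kl was lower (-0.40) at an unadjusted p under 0.05, and the list's median was 0.15. With the correction 1 was higher and 2 lower, and the median was -0.16. Of the 5 neuron markers 2 were higher and 0 lower, with a median of 0.11 (3 higher, 1 lower and 0.42 with the correction). Of 7 skeletal muscle markers 5 were higher, with a median of 1.5 (3 higher and 0.95 with the correction), and of the 8 cartilage and bone markers tested 4 were higher, with a median of 0.69 (0 higher and 0.30 with the correction). Their part in the collagen levels was not tested either. The bone markers Bglap and Bglap2 were too low to be tested, and 1 of them had no count in any library.

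All 44 collagen genes passed the filter on low counts, and the lowest count of any of them in a library was 12. Levels are given as RPKM, which is CPM after TMM normalisation, divided by the kilobases of annotated exon. Col6a1, a microfibrillar chain, had the highest mean level of the 44, at 6.52, followed by the transmembrane Col25a1 at 4.60 and by the type IV pair Col4a2 at 2.95 and Col4a1 at 2.65. The highest fibrillar gene, Col1a2, had a mean of 1.27. The lowest was Col6a6, with 0.0481. These means pool the genotypes. In Bahd1-WT alone Col25a1 was highest at 5.35, before Col6a1 at 3.85, Col4a1 at 2.04, Col9a3 at 1.74 and Col4a2 at 1.71.

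No collagen gene passed an adjusted p of 0.05 in the edgeR quasi-likelihood test, where 2 of 23975 genes (0.00834%) did, and the lowest adjusted p of a collagen gene was 0.0634. At an unadjusted p under 0.05, 19 collagen genes (43.2%) were higher in Bahd1-KO, against 19.9% of all genes tested, and 3 (6.82%) were lower, against 12.0%. At an adjusted p under 0.1 there were 15 collagen genes, or 34.1%, against 19.5% of all genes. In 17 genes (38.6%) every Bahd1-KO mouse lay above every Bahd1-WT mouse, a pattern seen in 20.6% of all genes, and in 2 genes every Bahd1-KO mouse lay below, against 19.3% of all genes. With DESeq2 and its normal prior, 15 collagen genes were called higher and 1, Col4a3, lower at an adjusted p of 0.05, which compares with 17.7% and 3.54% of all genes. The median log2 fold change of the 44 genes was 0.59, and that of all genes was -0.06. The call therefore depended on the tool. Higher collagen genes outnumbered lower ones in each of the counts above that was split by direction, all of them made without a correction for GC content. With that correction, given further on, lower ones outnumbered higher ones.

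**Figure D1:**
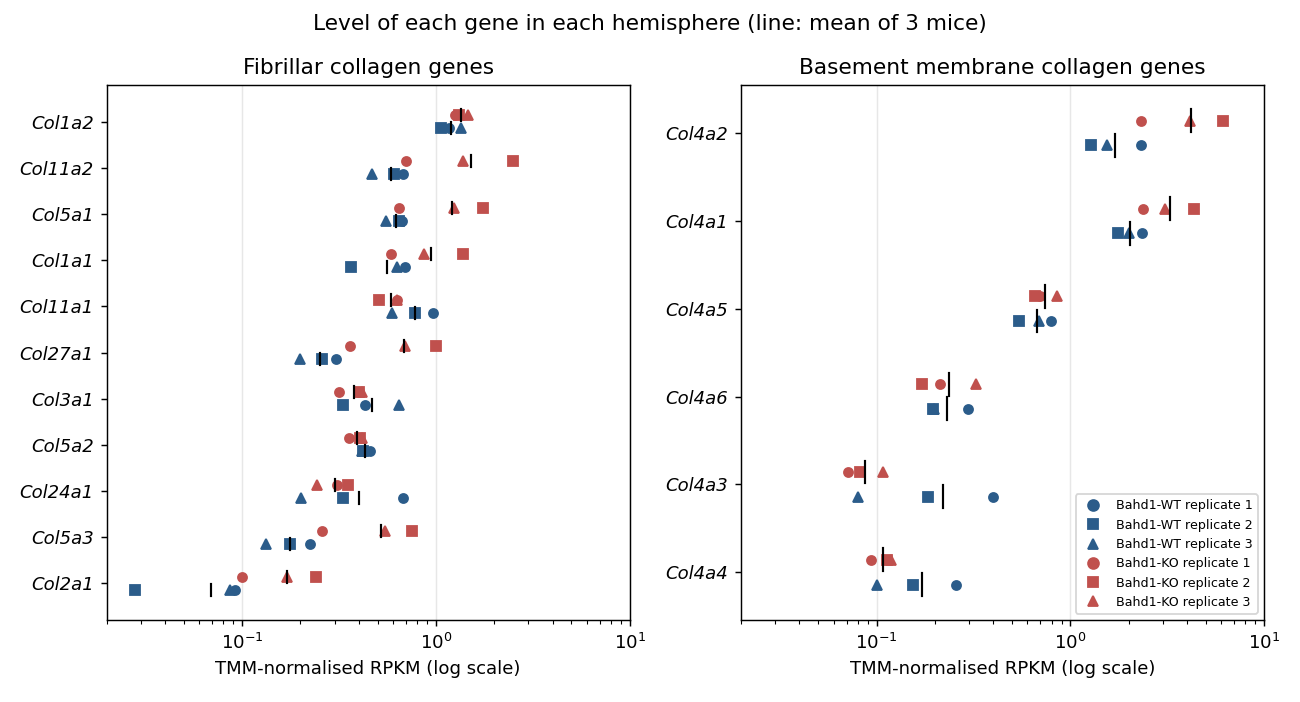
Level of the 11 fibrillar (left) and 6 basement membrane (right) collagen genes in each hemisphere, in TMM-normalised RPKM on a log axis. Blue symbols are Bahd1-WT mice, red symbols Bahd1-KO mice, and black lines the means of 3 mice. Bahd1-KO replicates 2 and 3 lie furthest to the right in Col11a2, Col5a1, Col27a1, Col5a3, Col2a1 and Col4a2, whereas Col1a2, Col5a2 and Col4a5 overlap between genotypes.

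Among the fibrillar genes the 2 chains of type I collagen, the main cable of the meninges, came first. Col1a1 (chr11:94936224-94953042) had an RPKM of 0.691, 0.365 and 0.627 in Bahd1-WT replicates 1 to 3 and of 0.585, 1.39 and 0.869 in Bahd1-KO replicates 1 to 3. Col1a2 (chr6:4504814-4541544), the partner chain, had 1.17, 1.06 and 1.35 against 1.26, 1.31 and 1.47. The genotypes overlapped for both, with the highest Col1a1 level in Bahd1-KO replicate 2. The log2 fold change was 0.76 (SE 0.36, adjusted p = 0.183) for Col1a1 and 0.17 (SE 0.18, adjusted p = 0.525) for Col1a2. Col3a1, the type III chain that is laid down with type I in vessel walls, was 0.431, 0.332 and 0.649 in Bahd1-WT and 0.316, 0.399 and 0.417 in Bahd1-KO. Its log2 fold change of -0.32 (SE 0.28) had an adjusted p of 0.453, and its genotypes overlapped too. With 1 library left out it ranged from -0.52 (without Bahd1-WT replicate 2) to -0.02 (without Bahd1-WT replicate 3). With the correction for GC content and length given further on, all 3 of these genes were lower at an unadjusted p under 0.05.

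Type V chains, which start and limit the growth of type I fibrils, were split. Col5a3 was 0.225, 0.176 and 0.132 in Bahd1-WT and 0.260, 0.753 and 0.548 in Bahd1-KO. Col5a1 was 0.669, 0.649 and 0.552 against 0.647, 1.75 and 1.24. Col5a2 was 0.457, 0.420 and 0.414 against 0.357, 0.406 and 0.416. Only Col5a3 separated the genotypes, since Bahd1-KO replicate 1 lay among the Bahd1-WT mice for Col5a1. The log2 fold changes were 1.55 (SE 0.39, adjusted p = 0.0634) for Col5a3, 0.96 (SE 0.34, adjusted p = 0.0999) for Col5a1 and -0.13 (SE 0.20, adjusted p = 0.671) for Col5a2. They were 0.02, -0.22 and -0.13 with the GC and length correction.

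Types II and XI are the fibrillar collagens of cartilage, the vitreous and developing nervous tissue. Col11a2 had an RPKM of 0.680, 0.606 and 0.470 in Bahd1-WT and 0.699, 2.50 and 1.37 in Bahd1-KO. Col11a1 was 0.963, 0.784 and 0.596 against 0.629, 0.508 and 0.628. The chains of this type thus lay on opposite sides of 0, at a log2 fold change of 1.38 (SE 0.42, adjusted p = 0.0748) for Col11a2 and -0.41 (SE 0.23, adjusted p = 0.246) for Col11a1. Col2a1 was low, at 0.0922, 0.0280 and 0.0870 against 0.0995, 0.240 and 0.170, with a log2 fold change of 1.29 (SE 0.47, adjusted p = 0.107). Every Bahd1-KO mouse was above every Bahd1-WT mouse for Col11a2 and Col2a1, but by a narrow margin in Bahd1-KO replicate 1.

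Col24a1 and Col27a1 encode the minor fibrillar types XXIV and XXVII. Col27a1 was 0.305, 0.259 and 0.198 in Bahd1-WT and 0.362, 1.00 and 0.690 in Bahd1-KO, with no overlap, a log2 fold change of 1.43 (SE 0.36) and an adjusted p of 0.0634. Its fold change was 0.14 with the GC and length correction. Col24a1 was 0.675, 0.334 and 0.200 against 0.311, 0.351 and 0.245. Its log2 fold change of -0.42 (SE 0.41, adjusted p = 0.499) rested on Bahd1-WT replicate 1, without which it was 0.18. Over the 11 fibrillar genes, 5 were higher and 0 lower at an unadjusted p under 0.05, against 19.9% and 12.0% of all genes. With the GC and length correction 0 were higher and 3 lower, against 9.89% and 11.4% of all genes. The median log2 fold change without it was 0.76, and values ran from -0.42 to 1.55.

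The type IV genes lie head to head in 3 pairs. The pair Col4a1 (chr8:11198423-11312826, minus strand) and Col4a2 (chr8:11312805-11449287, plus strand) encodes the chains of nearly all basement membranes. Their annotated starts are 21 bases apart. The promoter window below is shown because it holds both, and was taken from RefSeq GRCm38.p6 on the plus strand (chr8:11312555-11312854), with GC boxes (GGGCGG) and CCAAT boxes (CCAAT) on either strand in capitals.
Col4a2: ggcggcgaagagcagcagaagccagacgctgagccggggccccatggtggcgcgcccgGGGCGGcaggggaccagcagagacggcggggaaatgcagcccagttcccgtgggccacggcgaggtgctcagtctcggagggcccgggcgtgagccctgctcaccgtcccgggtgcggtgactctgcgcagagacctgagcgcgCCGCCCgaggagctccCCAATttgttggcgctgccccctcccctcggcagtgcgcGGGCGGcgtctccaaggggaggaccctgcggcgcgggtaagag

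The window had a GC content of 73.7% and held 3 of the GC boxes, 1 of the other motif and no TATA box, spelled TATAAA. Of 32851 promoter windows of the same length, 35.7% held a GC box, 37.4% the second motif and 13.6% a TATA box on either strand. Among 38 windows of the 35 collagen genes that had one, the counts were 23, 13 and 5. A match of letters is a description and not a bound site. The starts of Col4a3 and Col4a4 are 72 bases apart on chromosome 1, and those of Col4a5 and Col4a6 are 1309 bases apart on chromosome X.

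Col4a1 had an RPKM of 2.33, 1.76 and 2.01 in Bahd1-WT and 2.36, 4.35 and 3.08 in Bahd1-KO. Col4a2 was 2.31, 1.27 and 1.54 against 2.30, 6.15 and 4.15. In both genes Bahd1-KO replicate 1 was level with Bahd1-WT replicate 1, and Bahd1-KO replicates 2 and 3 were above all Bahd1-WT mice. The log2 fold change was 0.68 (SE 0.25, adjusted p = 0.109) for Col4a1 and 1.30 (SE 0.37, adjusted p = 0.0672) for Col4a2. The X-linked pair was nearly flat. Col4a5 was 0.797, 0.545 and 0.686 against 0.695, 0.656 and 0.856, and Col4a6 was 0.296, 0.195 and 0.198 against 0.213, 0.173 and 0.327, with log2 fold changes of 0.12 (SE 0.23, adjusted p = 0.738) and 0.04 (SE 0.31, adjusted p = 0.936).

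Col4a3 and Col4a4, chains of the basement membranes of kidney and lung, went the other way. Col4a3 was 0.397, 0.185 and 0.0807 in Bahd1-WT and 0.0715, 0.0822 and 0.107 in Bahd1-KO. Col4a4 was 0.257, 0.154 and 0.1002 against 0.0931, 0.114 and 0.119. For both, the Bahd1-WT mice were spread widely, with replicate 1 highest and replicate 3 inside the Bahd1-KO range. The log2 fold change was -1.34 (SE 0.51, adjusted p = 0.118) for Col4a3 and -0.65 (SE 0.35, adjusted p = 0.224) for Col4a4, and without Bahd1-WT replicate 1 they were -0.61 and -0.23. The summed level of 8 lung epithelium markers was likewise highest in Bahd1-WT replicate 1, at 117, 26.8 and 2.62 CPM in Bahd1-WT and 0.575, 1.89 and 1.49 CPM in Bahd1-KO. The surfactant gene Sftpa1 among them had 1908, 271 and 16 counts in Bahd1-WT and 0, 1 and 1 in Bahd1-KO. Of the 8 markers, 7 were lower at an unadjusted p under 0.05, against 12.0% of all genes. Their part in the Col4a3 and Col4a4 values was not tested.

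**Figure D2:**
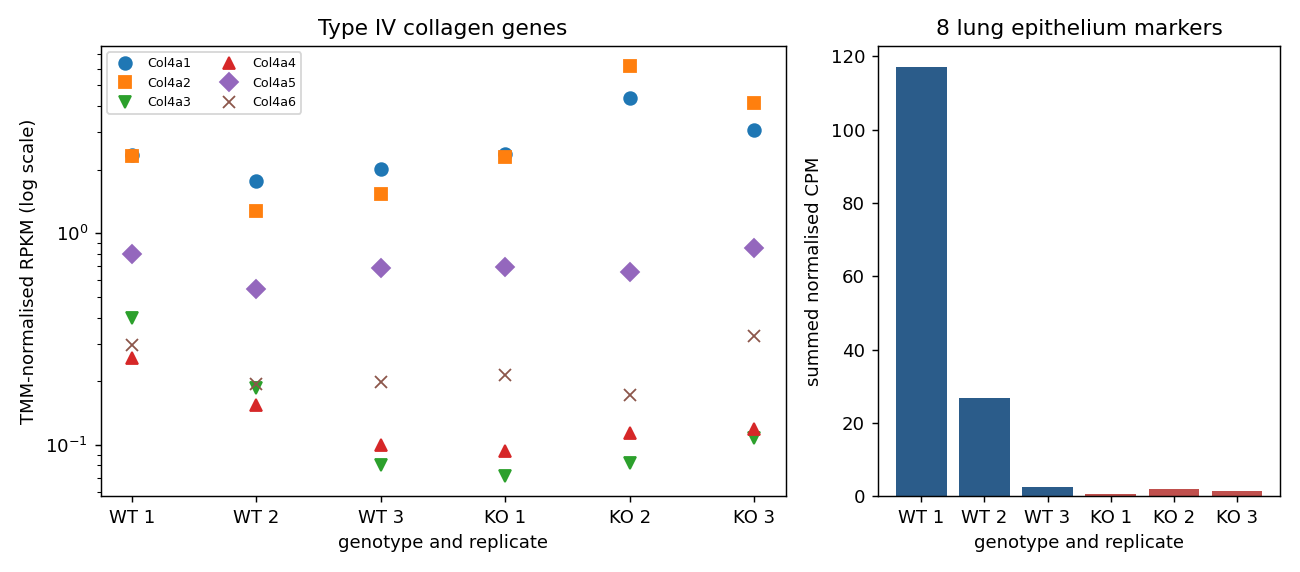
Left, TMM-normalised RPKM of the 6 type IV collagen genes in each hemisphere on a log axis. Right, summed normalised CPM of 8 lung epithelium markers in the same libraries, on a linear axis from 0. Col4a3 and Col4a4 are highest in Bahd1-WT replicate 1, the library in which the marker sum is 117 CPM, and Col4a1 and Col4a2 are highest in Bahd1-KO replicate 2.

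Over the 6 type IV genes, 2 were higher and 1 lower at an unadjusted p under 0.05, where all genes had 19.9% and 12.0%, so that with 6 genes these counts were near the background. With the correction 0 were higher and 3 lower, against 9.89% and 11.4% of all genes. The median log2 fold change without the correction was 0.08, with a range of -1.34 to 1.30. The fibrillar median of 0.76 was above it. The classes were also compared within each mouse, as the summed RPKM of the fibrillar genes over that of the type IV genes. This ratio was 0.994, 1.22 and 1.14 in Bahd1-WT and 0.963, 0.920 and 0.934 in Bahd1-KO, or 1.12 ± 0.11 against 0.939 ± 0.022 (mean ± SD, 3 mice each), a difference of -0.25 on the log2 scale. Fibrillar transcripts thus took a smaller part in every Bahd1-KO mouse by this measure, while the medians over genes pointed to larger fold changes in the fibrillar class. In the sums an abundant chain weighs more than a scarce one, and the medians count every gene alike. Which chains set the ratio was not tested. With the mean of log2 levels in place of sums the difference was 0.49, and after the correction for GC content and length described below it was -0.07. No p was computed for this ratio, since it is a score over chosen genes.

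The microfibrillar genes Col6a1 (chr10:76708792-76726168) and Col6a2 (chr10:76595762-76623630) lie side by side on chromosome 10 and encode chains of the same type VI molecule. Col6a1 was 5.52, 2.81 and 3.22 in Bahd1-WT and 5.68, 11.3 and 10.6 in Bahd1-KO. Col6a2 was 0.734, 0.407 and 0.617 against 0.908, 2.50 and 1.74. Every Bahd1-KO mouse was above every Bahd1-WT mouse in both. The log2 fold change was 1.25 (SE 0.33, adjusted p = 0.0645) for Col6a1 and 1.55 (SE 0.38, adjusted p = 0.0634) for Col6a2. The third chain, Col6a3, was 0.316, 0.225 and 0.276 against 0.284, 0.486 and 0.536, which overlapped, with a log2 fold change of 0.68 (SE 0.28, adjusted p = 0.142). Col6a1, Col6a2 and Col6a3 were at 0.33, 0.78 and 0.07 with the GC and length correction. The alternative chains Col6a4, Col6a5 and Col6a6 had mean levels of 0.0481 to 0.133 and log2 fold changes of -0.53 to 0.82.

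Fibril-associated collagens coat fibrils or link them to other matrix, and Col16a1 (chr4:130047840-130099283) had the highest log2 fold change of the 44 genes. It was 0.413, 0.206 and 0.259 in Bahd1-WT and 0.538, 2.20 and 1.22 in Bahd1-KO, a log2 fold change of 2.17 (SE 0.49, adjusted p = 0.0634). Col9a2, a type IX chain, was 1.08, 0.738 and 0.758 against 1.31, 3.77 and 2.18, a log2 fold change of 1.5 (SE 0.38, adjusted p = 0.0634). Col20a1 was 0.142, 0.107 and 0.0530 against 0.148, 0.421 and 0.296, a log2 fold change of 1.52 (SE 0.46, adjusted p = 0.0743). In these 3 genes the genotypes did not overlap, and Bahd1-KO replicate 1 was the Bahd1-KO mouse nearest to Bahd1-WT. Of Col20a1, 1.54% of the exon length overlaps another annotated gene on the same strand. Col9a3, the gene of this class with the highest mean level (2.27), overlapped between genotypes, at a log2 fold change of 0.69 (SE 0.33, adjusted p = 0.185). The class as a whole had a median of 0.08.

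Among the multiplexins, which are vascular and epithelial basement membrane collagens with glycosaminoglycan chains, Col18a1 is the source of endostatin. It was 0.900, 0.593 and 0.678 in Bahd1-WT and 1.05, 3.65 and 1.995 in Bahd1-KO, without overlap, at a log2 fold change of 1.63 (SE 0.42, adjusted p = 0.0635). The fold change was 0.12 with the GC and length correction. Col15a1 was nearly the same in the 3 Bahd1-WT mice, 0.403, 0.400 and 0.406, and 0.405, 0.829 and 0.626 in Bahd1-KO, with a log2 fold change of 0.63 (SE 0.28, adjusted p = 0.163), which was -0.32 with the GC and length correction. Bahd1-KO replicate 1 was thus again at the Bahd1-WT level.

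Of the transmembrane collagens, Col25a1 (chr3:130131501-130599877) is made by neurons, and its extracellular part is found in amyloid plaques. It was 5.32, 5.57 and 5.16 in Bahd1-WT and 4.34, 2.85 and 4.38 in Bahd1-KO, so that every Bahd1-KO mouse was below every Bahd1-WT mouse. The log2 fold change was -0.47 (SE 0.19, adjusted p = 0.137). It was -0.20 with the GC and length correction and -0.30 without Bahd1-KO replicate 2. Col23a1 was 1.94, 1.49 and 1.42 against 2.35, 2.62 and 2.16, a log2 fold change of 0.56 (SE 0.20, adjusted p = 0.109). Col13a1, found at the neuromuscular junction, was 0.147, 0.137 and 0.118 against 0.155, 0.372 and 0.251, a log2 fold change of 0.96 (SE 0.34, adjusted p = 0.1004). Both were above Bahd1-WT in every Bahd1-KO mouse.

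Short-chain collagens of type VIII make the hexagonal lattice of Descemet's membrane and are found in vessel walls. Col8a2 was 0.609, 0.606 and 0.702 in Bahd1-WT and 0.845, 1.31 and 1.08 in Bahd1-KO, without overlap, at a log2 fold change of 0.76 (SE 0.23, adjusted p = 0.0780). Col8a1 was 1.08, 1.31 and 1.16 against 1.10, 0.819 and 1.18, which overlapped, at -0.20 (SE 0.21, adjusted p = 0.535). Col7a1, the anchoring fibril collagen of skin, was low, at 0.0510, 0.0441 and 0.0331 against 0.0559, 0.321 and 0.185, with the second highest log2 fold change of the 44, 2.14 (SE 0.55, adjusted p = 0.0638). Its fold change was 0.50 with the GC and length correction. Col26a1 was 0.175, 0.145 and 0.197 against 0.228, 0.482 and 0.304, a log2 fold change of 0.98 (SE 0.31, adjusted p = 0.0828). Col28a1, a collagen of peripheral nerve, was 0.163, 0.201 and 0.156 against 0.0797, 0.105 and 0.0916, a log2 fold change of -0.89 (SE 0.26, adjusted p = 0.0705). Col28a1 and Col25a1 were the collagen genes for which all Bahd1-KO mice lay below all Bahd1-WT mice.

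Across collagens the same mice were at the extremes. Bahd1-KO replicate 2 had the highest level in 22 of the 44 genes, where it was highest for 33.3% of all genes, and Bahd1-WT replicate 2 had the lowest in 17, where it was lowest for 27.5% of all genes. Without Bahd1-KO replicate 2 the median log2 fold change of the fibrillar genes was 0.38, and without Bahd1-KO replicate 1 it was 1.04. Without Bahd1-KO replicate 2 the log2 fold change was over 1.5 times smaller in Col9a3 (0.23), Col1a1 (0.38), Col15a1 (0.36), Col11a2 (0.83), Col4a1 (0.42), Col5a1 (0.61), Col13a1 (0.61), Col26a1 (0.63) and Col18a1 (1.08). Of the genes below 0 it was so in Col25a1 (-0.30), Col8a1 (-0.06) and Col9a1 (-0.03). Col17a1, Col22a1 and Col14a1, near 0 with all mice, were then at -0.38, -0.07 and 0.06. Without Bahd1-KO replicate 1, 21 collagen genes passed an adjusted p of 0.05, with 7113 of 23690 genes passing.

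The genes that were higher and those that were not differed in base composition. The median GC content of the longest transcript was 55.1% for collagens and 48.7% for all genes, 58.0% for the fibrillar and 52.5% for the type IV class. Of the 9 collagens under 50% GC, 0 were higher and 2 lower at an unadjusted p under 0.05, and their median log2 fold change was -0.41. Of all genes in that band, 20.4% were lower, so the 2 were near the background. The 12 from 50% to 55% had a median of 0.06 with 1 higher and 1 lower, the 14 from 55% to 60% a median of 0.76 with 9 higher, and the 9 at 60% or more a median of 1.5 with all 9 higher. All genes tested had medians of -0.36, 0.30, 1.00 and 1.68 in the same bands, with 1.77%, 24.8%, 65.8% and 76.7% higher. In each band the collagen median was thus below that of all genes. Over the 44 genes the log2 fold change and GC content had a Pearson r of 0.85 and a Spearman rho of 0.87, a description across genes that share the same 6 libraries. With GC at the third codon position r was 0.66, and with the share of glycine codons it was -0.08. Repeat length was not compared with the fold change.

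**Figure D3:**
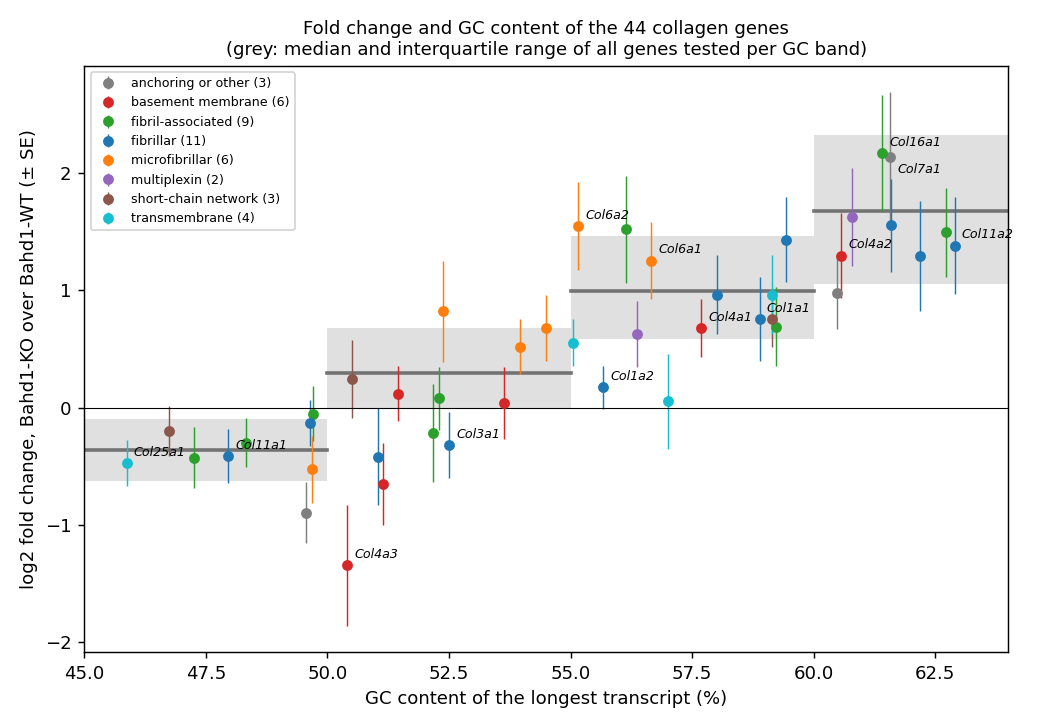
Log2 fold change (Bahd1-KO over Bahd1-WT, ± SE from edgeR) of the 44 collagen genes against the GC content of the longest transcript, coloured by class. Grey lines are the medians and grey boxes the interquartile range of all genes tested in each GC band, with medians of -0.36, 0.30, 1.00 and 1.68. Col25a1 and Col11a1 at the left lie below 0, and Col16a1, Col7a1 and Col11a2 at the right lie above 1.

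When counts were corrected in each library for a smooth trend with GC content and length over all genes, the collagen pattern changed sign. This offset also removes any difference between genotypes that follows GC content, whatever its source. The median log2 fold change of the 44 genes became -0.22, with all genes at -0.06, and 33 of 44 genes lay below 0 in place of 14. No collagen gene passed an adjusted p of 0.05, where 0.0167% of all genes did. At an unadjusted p under 0.05, 2 collagen genes were higher, against 9.89% of all genes, and 9 (20.5%) were lower, against 11.4%. The fibrillar median became -0.26 and the type IV median -0.40, so that the classes were closer than without the offset.

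The genes that stayed above 0 with the offset and had an unadjusted p under 0.05 were Col6a2, at 0.78 (SE 0.18, adjusted p = 0.0817), and Col16a1, at 0.60 (SE 0.17, adjusted p = 0.103). The type I chains were below 0, with Col1a1 at -0.47 (SE 0.17, adjusted p = 0.164) and Col1a2 at -0.53 (SE 0.22, adjusted p = 0.201), as was Col3a1 at -0.63 (SE 0.22, adjusted p = 0.149). Col4a1 was at -0.38 (SE 0.13, adjusted p = 0.133), whereas Col4a2 was at -0.10 (SE 0.13, adjusted p = 0.699). Col4a3 stayed close to its value without the offset, at -1.41 (SE 0.47, adjusted p = 0.128), and so did Col28a1, at -0.91 (SE 0.25, adjusted p = 0.0958). Col17a1, a hemidesmosome collagen with 0.05 without the offset, was at -1.02 (SE 0.29, adjusted p = 0.0993).

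**Figure D4:**
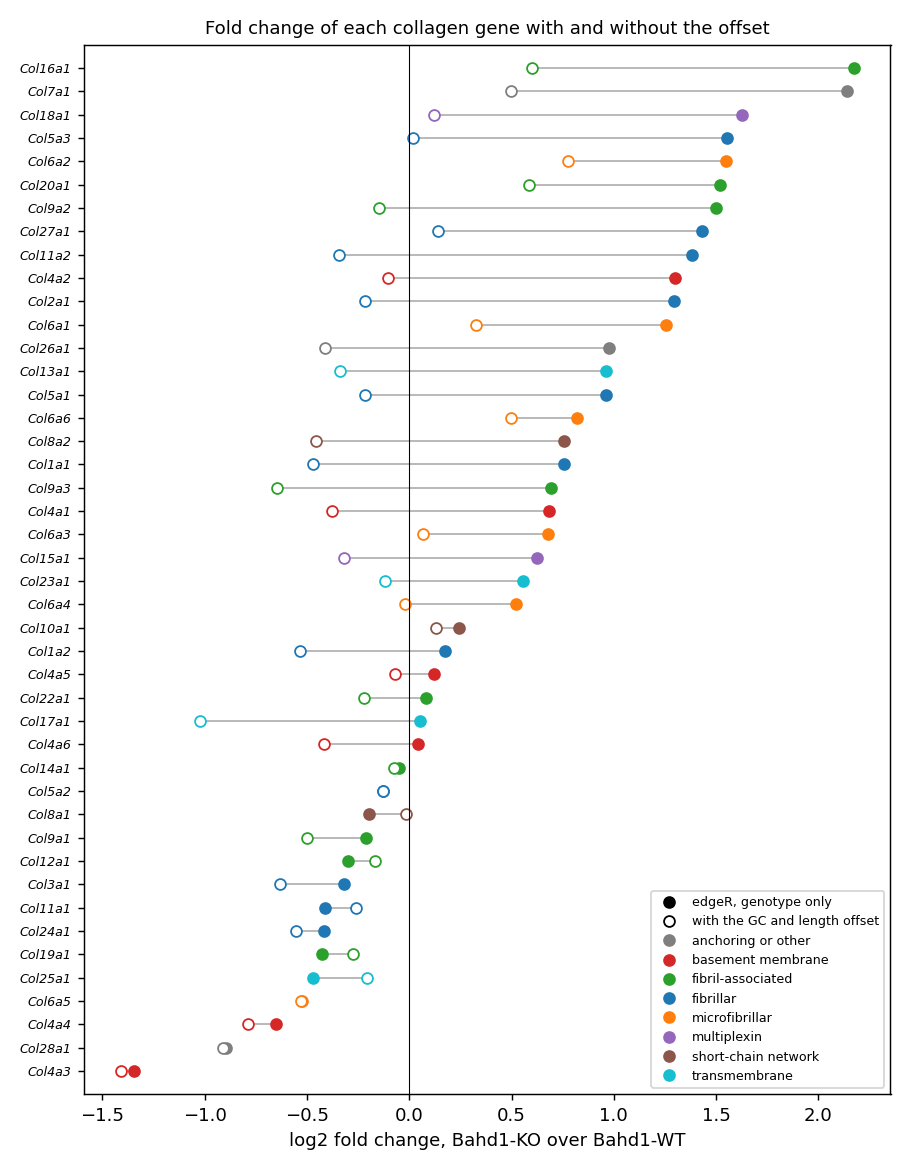
Log2 fold change of each of the 44 collagen genes, Bahd1-KO over Bahd1-WT, without (filled) and with (open) the GC and length offset, coloured by class and sorted by the value without it. Open symbols lie left of filled ones for most genes of the upper part, with 30 filled and 11 open symbols above 0. Col6a2 has the highest open symbol, at 0.78.

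Pairs of chains that assemble into 1 collagen type show the same contrast within a library. The ratio of Col11a2 to Col11a1 RPKM was 0.707, 0.772 and 0.789 in Bahd1-WT and 1.11, 4.92 and 2.19 in Bahd1-KO. That of Col5a1 to Col5a2 was 1.46, 1.54 and 1.34 against 1.81, 4.30 and 2.98, and that of Col8a2 to Col8a1 was 0.562, 0.461 and 0.607 against 0.766, 1.59 and 0.920. In each of these the first chain has the higher GC content, and the genotypes did not overlap, which was also so for Col9a2 over Col9a1 and Col6a1 over Col6a3. With the offset, Col11a2 over Col11a1 was 1.02, 1.66 and 1.46 against 1.15, 1.27 and 1.42, and Col5a1 over Col5a2 was 1.81, 2.55 and 1.97 against 1.89, 1.89 and 2.17. Col8a2 over Col8a1 was 0.759, 0.889 and 0.992 against 0.783, 0.527 and 0.638 with the offset, so that the difference between the log2 fold changes of its chains went from 0.96 to -0.44. Col9a2 over Col9a1 was 15.2, 33.3 and 13.7 against 24.4, 27.4 and 18.4, and Col6a1 over Col6a3 was 19.3, 14.3 and 13.1 against 18.4, 17.9 and 19.6. All 5 ratios overlapped between genotypes with the offset. The other pairs overlapped without it, although the first chain had the higher GC content in Col1a1 over Col1a2 (58.9% and 55.7%) and in Col4a2 over Col4a1 (60.6% and 57.7%). In Col6a2 over Col6a1 the first chain had the lower GC content (55.2% and 56.7%), and the difference in log2 fold change was 0.30, or 0.45 with the offset. Col1a1 over Col1a2 was 0.592, 0.344 and 0.466 against 0.465, 1.06 and 0.592, Col4a2 over Col4a1 was 0.992, 0.724 and 0.763 against 0.976, 1.41 and 1.35, and Col6a2 over Col6a1 was 0.133, 0.145 and 0.192 against 0.160, 0.222 and 0.164. In these 3 the highest ratio was in Bahd1-KO replicate 2.

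**Figure D5:**
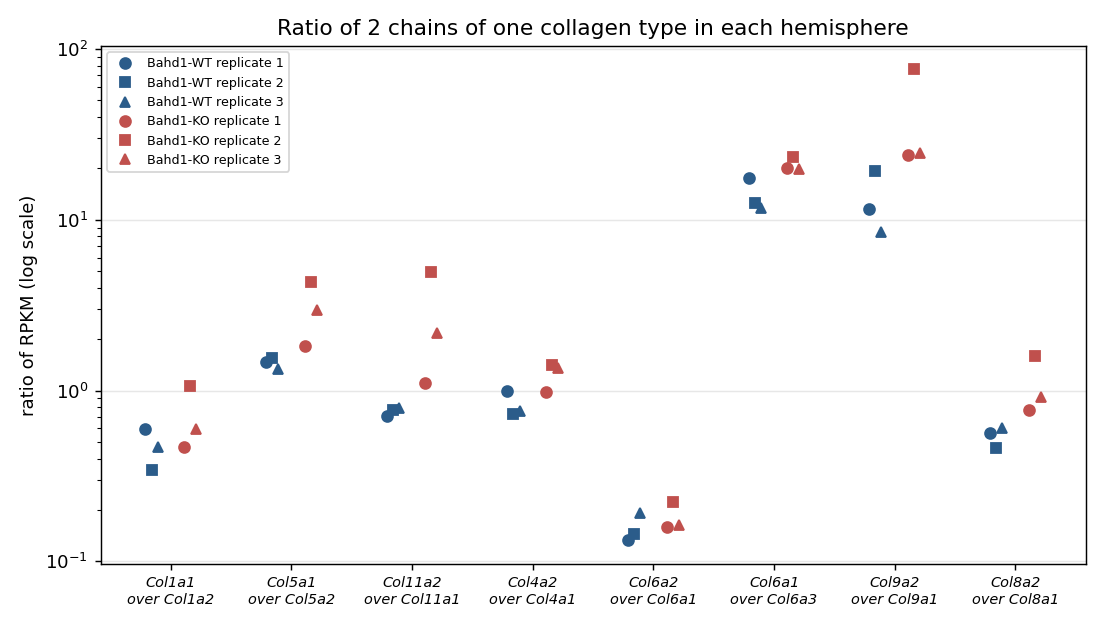
Ratio of the RPKM of 2 chains of 1 collagen type in each hemisphere, on a log axis, with Bahd1-WT mice in blue and Bahd1-KO mice in red. The genotypes do not overlap for Col5a1 over Col5a2, Col11a2 over Col11a1, Col6a1 over Col6a3, Col9a2 over Col9a1 and Col8a2 over Col8a1, and they overlap for the other 3 pairs.

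The proteins that make, bind and remove collagen were examined in 6 lists, and none of their genes passed an adjusted p of 0.05. Of 18 genes for the modification and folding of chains, 6 were higher and 0 lower at an unadjusted p under 0.05, where 19.9% of all genes were higher and 12.0% lower. Their median was 0.39 on the log2 scale (-0.03 with the offset). With the offset 4 were higher and 4 lower, against 9.89% and 11.4% of all genes. The lysyl hydroxylase Plod3 was 1.49, 0.842 and 1.10 RPKM in Bahd1-WT and 2.09, 5.82 and 3.26 in Bahd1-KO, a log2 fold change of 1.7 (SE 0.38, adjusted p = 0.0634) and 0.56 with the offset. Plod1, another lysyl hydroxylase, had a log2 fold change of 1.41 (SE 0.34) and P3h4, which works with it, of 1.30 (SE 0.34). With the offset they were at 1.01 and 0.05. The genotypes did not overlap for any of the 3, which were picked for the lowest p of the list. Every Bahd1-KO mouse lay above every Bahd1-WT mouse in 20.6% of all genes.

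Of 13 genes for procollagen trimming and crosslinking, 5 were higher (19.9% of all genes) and 1 lower (12.0% of all genes), with a median of 0.65 (0.03 with the offset). The offset left 1 higher and 1 lower, against 9.89% and 11.4% of all genes. The lower gene was Lox, lysyl oxidase, which crosslinks fibrils. It was 0.590, 0.525 and 0.380 RPKM in Bahd1-WT and 0.284, 0.200 and 0.257 in Bahd1-KO, a log2 fold change of -1.02 (SE 0.27, adjusted p = 0.0641) and -0.68 with the offset. Pcolce, which enhances cleavage of the C-propeptide, was at 1.37 (SE 0.37), and Adamts2, which removes the N-propeptide, was at 0.84 (SE 0.23). Their adjusted p-values were 0.0649 and 0.0661, and with the offset they were at 0.63 and 0.25.

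Of 11 collagen receptors, 4 were higher and 2 lower, beside 19.9% and 12.0% of all genes, with a median of -0.39 (-0.12 with the offset). The counts became 1 and 0 with the offset, beside 9.89% and 11.4% of all genes. Adgrg1, a receptor for type III collagen in the developing cortex, was 6.91, 4.0 and 4.60 RPKM against 9.32, 21.2 and 13.1, a log2 fold change of 1.49 (SE 0.32, adjusted p = 0.0634) and 0.57 with the offset. Its ligand chain Col3a1 was at -0.32. The integrin chain Itga11 was at 1.2 (SE 0.28) and the kinase receptor Ddr1, which is abundant in oligodendrocytes, at 1.74 (SE 0.45). With the offset they were at 0.44 and 0.29, and Ddr1 was at 1.06 without Bahd1-KO replicate 2. Of 11 genes for collagen breakdown and its inhibitors, 3 were higher and 2 lower, with a median of 0.07 (-0.19 with the offset). These counts were near the 19.9% and 12.0% of all genes. They were 0 and 2 with the offset, where all genes had 9.89% and 11.4%. The neutrophil collagenase Mmp8 was at -1.69 (SE 0.43), Mmp14 at 0.92 (SE 0.27) and Mmp2 at 1.09 (SE 0.32), or -1.37, 0.29 and 0.33 with the offset.

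Of 16 basement membrane partners of type IV collagen, 7 were higher and 0 lower, compared with 19.9% and 12.0% of all genes, with a median of 0.33 (-0.18 with the offset). With the offset 3 were higher and 2 lower, compared with 9.89% and 11.4% of all genes. The laminin chain Lama5 was 0.156, 0.0697 and 0.0862 RPKM against 0.180, 0.974 and 0.416, a log2 fold change of 2.33 (SE 0.58, adjusted p = 0.0634). Lamb2, which joins it in vascular laminin, was at 2.11 (SE 0.54) and Lamc3 at 1.42 (SE 0.31). With the offset the 3 laminin chains were at 0.88, 0.76 and 0.30. Of 12 fibril-binding matrix proteins, 4 were higher and 3 lower, next to 19.9% and 12.0% of all genes, with a median of 0.07 (0.05 with the offset). None passed in either direction with the offset, where 9.89% of all genes were higher and 11.4% lower. Fbln2 was at 1.30 (SE 0.32), Tnxb, which overlapped between genotypes, at 1.83 (SE 0.52) and Fbln1 at 0.87 (SE 0.26), or 0.30, 0.41 and 0.17 with the offset. Fbln1 was at 0.56 without Bahd1-KO replicate 2. The lists for trimming and for modification thus had medians above that of all genes without the offset and close to 0 with it.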

How the data were processed

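Total RNA of one brain hemisphere per mouse was poly(A)-selected and sequenced as stranded libraries. Per the study's processing notes, the authors trimmed reads with cutadapt 1.11, aligned them to GRCm38 with STAR 2.5.0a and counted reads on exons with featureCounts 1.4.6-p3. The supplementary methods also name Tophat2. The authors deposited whole-number counts per gene, without normalization, for 53801 genes. The table held 0 columns of other samples. The supplementary methods give strand-specific counting on exons. Same-strand exon overlaps touched only Col20a1, Col3a1 and Col7a1 among the 44 genes.

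Genes with a count sum of at least 10 were kept (23975). The main test was edgeR 4.0.16 in R 4.3.3 (TMM, quasi-likelihood fit, genotype only), with Benjamini-Hochberg adjustment over all genes and a threshold of 0.05. DESeq2 1.42.0, other scalings and filters, each library left out, a replicate block and a GC and length offset were alternatives. The offset was a natural spline of GC content (5 degrees of freedom) and log length (3) fitted per library to 13283 genes with a mean log2 CPM above 1. It covered 23940 genes, and the rest kept no offset. The scripts were tested on simulated counts. RPKM used the union of annotated exons, and GC content the longest transcript. Each sample was a separate mouse.

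The collagen genes, classes and lists were chosen with earlier results of these data known. Named with values were all fibrillar and type IV genes, the most abundant gene of each other class and those with an unadjusted p under 0.05, and the 3 genes of lowest p of each pathway list. Genes named outside that rule (Sftpa1, Slc2a1, Cldn5, Rgs5, Ttr, Kl, Col6a4 to Col6a6, Col9a1, Col14a1, Col15a1, Col17a1 and Col22a1) were chosen after their values were seen.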

Additional observations from a re-analysis of the deposited data

How the results depend on the processing

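The number of collagen genes past an adjusted p of 0.05 was 0 with edgeR as tested, and 16 with DESeq2 with or without its prior, 11 with a filter of at least 1 count and 9 with total counts as scaling, with 4107, 4112, 3611 and 2253 of all genes called. It ranged from 0 to 21 when 1 library was left out, the 21 without Bahd1-KO replicate 1, and was 0 under every other alternative. The number higher at an unadjusted p under 0.05 was 19 at first, 2 under the offset for GC and length, with or without the replicate block, and 14 to 24 with 1 library left out. The number lower was 3, and 9 with the offset in both forms, 5 with upper-quartile factors, 1 with the replicate block, and 1 to 3 with 1 library left out, the 1 without Bahd1-WT replicate 1. Upper-quartile factors moved the median of all genes to -0.20 from -0.06, and 26 in place of 30 collagen genes then lay above 0.

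The fibrillar median log2 fold change of 0.76 was -0.26 with the offset and -0.24 with the offset and block, and 0.38 to 1.04 with 1 library left out. The type IV median of 0.08 was -0.40 and -0.42 with the offset, -0.048 with upper-quartile factors, and -0.12 to 0.26 with 1 library left out, below 0 without Bahd1-KO replicate 3 (-0.12) or Bahd1-WT replicate 2 (-0.04). The fibrillar to type IV ratio of -0.25 was 0.49 as a mean of log2 levels, -0.073 with the offset, and -0.33 to -0.18 with 1 library left out.

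With the offset, and with the offset and block, 15 of the 52 genes named by rule changed sign: Col1a1 (-0.47 and -0.45), Col1a2 (-0.53 and -0.57), Col2a1 (-0.22 and -0.10), Col5a1 (-0.22 and -0.21), Col11a2 (-0.34 and -0.33), Col4a1 (-0.38 and -0.38), Col4a2 (-0.10 and -0.10), Col4a5 (-0.072 and -0.069), Col4a6 (-0.42 and -0.46), Col9a2 (-0.15 and -0.15), Col9a3 (-0.65 and -0.62), Col8a2 (-0.46 and -0.47), Col13a1 (-0.34 and -0.34), Col23a1 (-0.12 and -0.14) and Col26a1 (-0.41 and -0.41). Of the genes named after their values were seen, Col15a1 (-0.32), Col17a1 (-1.02), Col22a1 (-0.22), Col6a4 (-0.02) and Rgs5 (0.0052) also changed sign with the offset. Other named genes kept their sign but were smaller in size with the offset, among them Col5a3 (0.02), Col8a1 (-0.02), P3h4 (0.05), Col6a3 (0.07), Col18a1 (0.12) and Col27a1 (0.14). Among those larger in size were Col3a1 (-0.63), Col24a1 (-0.55), Col4a3 (-1.41) and Col4a4 (-0.79). Col4a5 was -0.012 and Col4a6 -0.084 with upper-quartile factors. With 1 library left out, Col4a5 ranged from -0.015 (without Bahd1-WT replicate 2) to 0.25, Col4a6 from -0.25 (without Bahd1-KO replicate 3) to 0.27 and Col24a1 from -0.74 to 0.18 (without Bahd1-WT replicate 1). Col4a6 was also below 0 without Bahd1-WT replicate 2 or 3. The cause of these changes was not tested, beyond the offset's own construction.

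Same-numbered mice did not deviate together, with correlations of -0.64, -0.66 and -0.14, so the replicate block pairs mice by number only. At an adjusted p of 0.05 it changed the call of no named gene, and 7 in place of 2 genes of all passed. With the block Col4a1, Col6a3 and Col23a1 (higher) and Col4a3 and Col25a1 (lower) no longer had an unadjusted p under 0.05. Counting error was not measured, and the lowest count of a member in a library was 12. The 3 mice per genotype and the spread of the Bahd1-KO mice limit what these comparisons can resolve.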
